A study of Mus musculus with 8 samples.

Results

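The colony-stimulating and haematopoietic growth factors described here are 6 genes, *Csf1*, *Csf2*, *Csf3*, *Il34*, *Kitl* and *Tslp*, taken as the rows of the count table that carry these symbols, out of 54658 genes. All 6 symbols were present, 5 had at least 1 read and 2, *Csf1* and *Il34*, passed the filter on low counts. RNA-Seq was performed on 4 IL-1β-treated and 4 vehicle-treated samples of primary murine articular chondrocytes, which were digested out of the femoral heads of wild-type mice at 3 weeks of age and plated in 12-well plates. IL-1β, a proinflammatory cytokine that activates NF-κB, was given at 1 ng/mL for 24 h, and both groups shared the same tissue source, digestion and medium. Nothing in the labels says that the replicates of a group came from separate cultures or animals, so the p-values measure the spread between these samples, which may be technical.

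Haematopoietic growth factors are secreted or membrane-bound proteins that keep blood cell precursors alive and drive their division and maturation. The products of *Csf1* and *Il34* share the receptor CSF1R on monocytes, macrophages and osteoclast precursors. *Csf2* (GM-CSF) and *Csf3* (G-CSF) act on macrophages and granulocytes, *Kitl* (stem cell factor) acts through KIT on mast cells and stem cells, and *Tslp* (thymic stromal lymphopoietin) acts through the CRLF2 and IL-7 receptor pair on dendritic and lymphoid cells. In the joint, CSF1R ligands made by resident cells are known for their role in osteoclast formation, and many cytokine mRNAs of this kind carry AU-rich elements in the 3′ UTR through which they are degraded.

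The 6 genes differed from each other in AU-rich elements. A 30-base window of the 3′ UTR with the most ATTTA pentamers is shown for 5 of them. It was taken from the longest coding transcript in GENCODE vM21 (GRCm38, the same assembly as mm10). Each window is written 5′ to 3′ on the sense strand, with the ATTTA matches in capitals.
Csf1: tttatataaggtcATTTAaatatctATTTA
Csf2: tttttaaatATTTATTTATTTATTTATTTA
Csf3: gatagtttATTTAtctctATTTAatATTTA
Il34: tggttcctttttctattaaatggccATTTA
Kitl: ccttctcagttttgtgacttgATTTATTTA
In the order shown, the windows start at base 2021, 230, 24, 571 and 1950 of the 3′ UTR. The 3′ UTR of *Csf2*, 317 bases long, held 9 ATTTA pentamers and 4 overlapping matches to the nonamer TTATTTATT, a density of 28.4 pentamers per kilobase. *Csf3* held 6 pentamers in 669 bases, or 8.97 per kilobase. The other 4 genes had lower densities, with 3.16 per kilobase for *Kitl* (14 in 4435 bases), 2.92 for *Tslp* (2 in 686 bases), 1.89 for *Csf1* (4 in 2111 bases) and 1.65 for *Il34* (1 in 605 bases). Of 21037 mouse 3′ UTRs, 64.7% held at least 1 ATTTA and 7.56% held the nonamer, so *Csf2* was the one gene here with the rarer motif.

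Because IL-1β acts through NF-κB, the promoters were also searched. RefSeq promoters (GRCm38.p6, 250 bases before to 50 after the start) were matched for 3 of the 6 genes, *Csf1*, *Kitl* and *Csf2*. The NF-κB consensus, the AP-1 motif TGANTCA and the TATA box TATAAA were searched on both strands. The promoters of *Csf1* and *Kitl* are shown because each holds a match to the NF-κB consensus, and the levels of the 2 genes differ widely, *Csf1* being abundant and *Kitl* below the filter on low counts. Capitals mark the matches, and both sequences run 5′ to 3′ on the strand of the gene.
Csf1: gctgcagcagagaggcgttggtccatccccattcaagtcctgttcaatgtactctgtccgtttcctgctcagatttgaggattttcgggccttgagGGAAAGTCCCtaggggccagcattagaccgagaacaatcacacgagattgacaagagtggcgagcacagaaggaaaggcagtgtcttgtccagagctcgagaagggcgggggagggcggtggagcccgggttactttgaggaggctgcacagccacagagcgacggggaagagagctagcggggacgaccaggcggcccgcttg
Kitl: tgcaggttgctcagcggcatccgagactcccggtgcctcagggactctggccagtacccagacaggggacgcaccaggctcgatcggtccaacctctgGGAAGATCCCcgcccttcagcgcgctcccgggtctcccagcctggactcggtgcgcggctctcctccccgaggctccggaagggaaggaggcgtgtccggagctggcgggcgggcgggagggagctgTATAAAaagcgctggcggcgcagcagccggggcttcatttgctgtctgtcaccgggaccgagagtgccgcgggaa
The *Csf1* promoter (chr3:107760420-107760719, minus strand, 58.7% GC) held 1 NF-κB match, from 154 to 145 bases before the start, and neither of the other motifs. The *Kitl* promoter (chr10:100015571-100015870, plus strand, 68.7% GC) held 1 NF-κB match, from 152 to 143 bases before the start, and a TATA box from 25 to 20 bases before it. The *Csf2* window (chr11:54249850-54250149, minus strand) held none of the 3 motifs, and its RefSeq start lay 232 bases upstream of the GENCODE gene start. This window lies wholly upstream of the GENCODE start, so the bases directly before that start were not searched. The RefSeq start of *Kitl* lay 191 bases downstream of that in GENCODE. Among 32851 mouse promoters of this length, 8.46% held the NF-κB consensus, 7.81% the AP-1 motif and 13.6% the TATA box. These matches describe letters in the sequence and say nothing of binding in these cells.

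The total per sample was 10992355 to 17456063 counts. The 7 chondrocyte markers were all expressed, with a summed level of 3571 to 3939 CPM (the count relative to the library total, with TMM scaling) in IL-1β-treated and 14200 to 14750 CPM in vehicle-treated samples, and all 7 fell. The treatment was visible in *Mmp3* (log2 fold change 5.48) and *Mmp13* (2.72), which encode matrix-degrading enzymes, and in *Il6*, with 14 to 26 reads per sample under IL-1β and 0 in every vehicle-treated sample. Among markers of other cell types, 2 of 11 macrophage and myeloid markers passed the filter: *Cd68* rose (log2 fold change 0.67, adjusted p = 8.49e-07) and *Lyz2* was lower on the log2 scale (-0.60, adjusted p = 0.0364), a call that was lost in 7 other settings, among them DESeq2 (adjusted p = 0.108) and no filter (0.0750). Summed over the list, the level was 16.2 to 19.6 CPM in IL-1β-treated and 12.4 to 13.7 CPM in vehicle-treated samples, and *Ptprc*, the pan-leukocyte marker, had at most 6 reads in a sample. Of 5 osteoclast markers, only *Ctsk* passed the filter, and it rose (134.5 against 109 CPM), while *Dcstamp* had 0 reads. The sum, nearly all of it *Ctsk*, was 131.7 to 137.6 against 109.2 to 110.9 CPM. None of the mast cell, lymphocyte and endothelial markers passed the filter, their summed levels were at most 1.25 CPM in every sample, and *Cpa3*, *Mcpt4*, *Cd3e* and *Nkg7* had 0 reads. Of 5 fibroblast and synovial lining markers, 3 passed the filter and rose, *Prg4*, *Pdpn* and *Cd34*. *Thy1* and *Dpt* were at most 0.636 CPM in every sample. The sum of the list was 2001 to 2114 against 845 to 897 CPM. Most of it was *Prg4*, at 1955 to 2070 against 827 to 880 CPM. The paper stained Prg4 as a readout of articular cartilage, so this sum does not measure other cell types. The part of any such cells in the results below was not tested.

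The comparison of IL-1β with vehicle asked how these growth factors responded in the chondrocyte samples. *Il34* rose 3.13-fold, *Csf1*, by far the most abundant of them, was 1.06-fold higher, *Tslp* rose 2.26-fold at a level too low for the filter, *Kitl* and *Csf3* were below the filter and not called, and *Csf2* had 0 reads in both groups. The threshold for a differentially expressed gene (DEG) was an absolute log2 fold change over 1 together with an adjusted p under 0.05. Of the 2 genes tested, 1 was a DEG (*Il34*), where 2.86% of the 14404 tested genes were DEGs with higher expression under IL-1β. Both had an adjusted p under 0.05 in the same direction, against 20.4% of tested genes, and in both the 4 IL-1β-treated samples lay above the 4 vehicle-treated ones, against 18.7%. With 2 genes, these shares describe the pair and support nothing about the family.

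**Figure D1:**
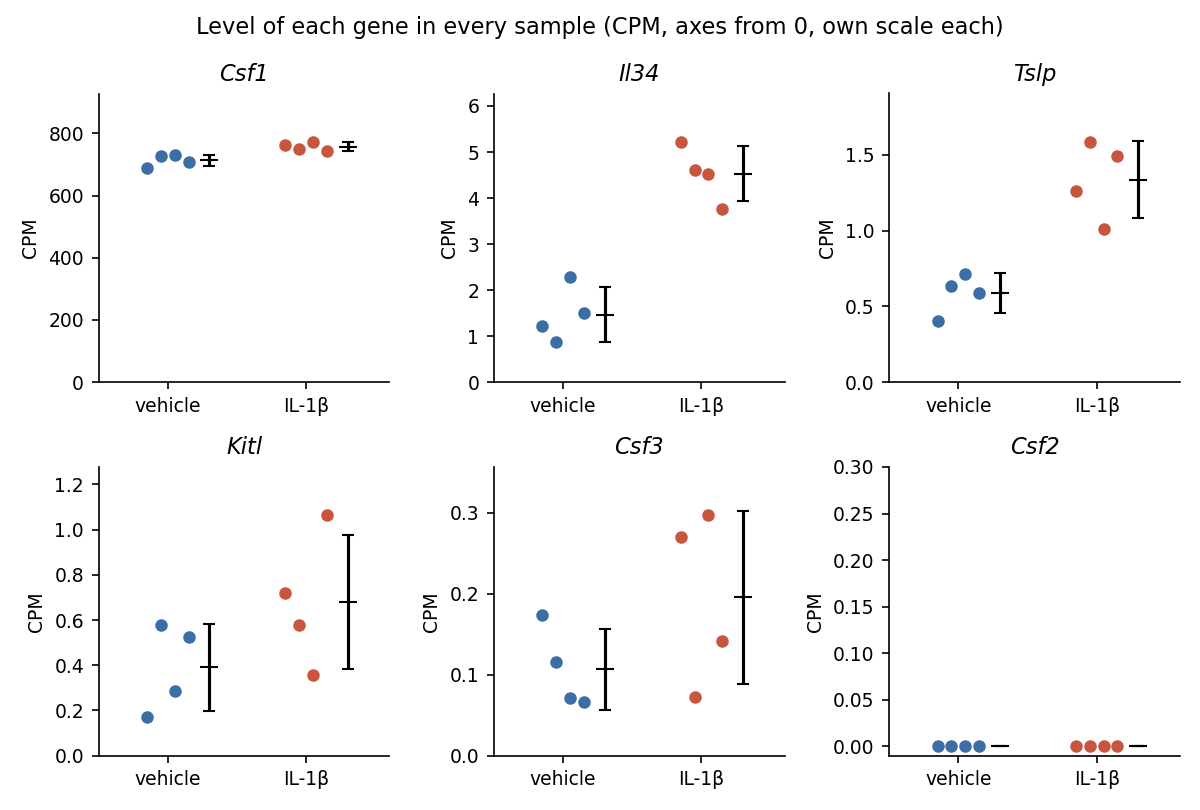
Level of the 6 growth factor genes in each sample, in CPM on a linear axis of its own for each gene, with points for the 4 vehicle-treated and 4 IL-1β-treated samples and bars for the mean ± SD. The groups do not overlap for *Csf1* (690.1 to 729.8 against 743.1 to 773.9 CPM), *Il34* and *Tslp*, overlap for *Kitl* and *Csf3*, and *Csf2* is at 0 throughout.

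*Csf1* (ENSMUSG00000014599.10, chr3:107741048-107760469, minus strand), which encodes macrophage colony-stimulating factor, had 763, 749.7, 773.9 and 743.1 CPM in the IL-1β-treated samples. The vehicle-treated samples had 690.1, 727.1, 729.8 and 707.7 CPM. Every IL-1β-treated sample was above every vehicle-treated one, but the gap between the groups was smaller than the spread within either of them. The means were 757 ± 13.7 and 714 ± 18.5 CPM (SD, n = 4 each), a difference of 6.13% or a log2 fold change of 0.09 (SE 0.0295, adjusted p = 0.0208 by edgeR's quasi-likelihood test). This call was lost without the filter on low counts (adjusted p = 0.0792), without IL-1β replicate 3 (0.0592) and without vehicle replicate 1 (0.0903). These values rest on 8468 to 13029 reads per sample. In these bulk samples, a change in the number of cells of a type and a change in RNA per cell cannot be told apart.

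*Csf1* was expressed at a high level in these chondrocyte samples in both groups. It ranked 111 by mean CPM among the 14404 tested genes with IL-1β and 114 with vehicle. Per kilobase of exon, its level ranked 233 with IL-1β and 249 with vehicle, within the top 1.62% and 1.73% of tested genes, respectively.

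*Il34* (ENSMUSG00000031750.15, chr8:110741829-110805924, minus strand) encodes the second ligand of CSF1R, which has no sequence likeness to the first. It had 58, 64, 76 and 53 reads in the IL-1β-treated samples, or 5.23, 4.62, 4.51 and 3.76 CPM. The vehicle-treated samples had 21, 15, 32 and 23 reads, or 1.21, 0.867, 2.28 and 1.51 CPM. The groups did not overlap, and vehicle replicate 3 was the sample nearest to the IL-1β-treated ones. The mean was 4.53 ± 0.602 CPM under IL-1β against 1.47 ± 0.603 CPM for vehicle (SD, n = 4 each), and *Il34* rose with a log2 fold change of 1.65 (SE 0.206, adjusted p = 1.37e-07). Leaving out 1 sample at a time gave 1.45 to 1.92, and the call held each time. *Il34* passed the filter through 3 of the vehicle-treated samples as well as through all 4 IL-1β-treated ones.

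The annotation places 97 exon bases of *Il34* (4.95%) under exons of the opposite-strand genes *Gm15894* and *Gm15895*, and whether the counting used strand is not given in the sources used here. *Gm15894* had 40 reads in all IL-1β-treated samples together and 14 in the vehicle-treated ones, and *Gm15895* had 31 and 16. These are smaller than the 251 and 91 reads of *Il34*, but how many reads the 3 genes share was not tested.

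Set side by side, the genes of the CSF1R ligands differed in response. The log2 ratio of *Il34* to *Csf1*, in CPM with a pseudocount of 0.5, was -7.24 ± 0.162 with IL-1β and -8.55 ± 0.424 with vehicle (SD, n = 4 each). The difference of 1.31 had a two-sided p = 0.0286 in the exact permutation test over samples. This p is the smallest that 4 against 4 samples can give, and it was the 1 pair of genes compared. The size of the difference depended on the pseudocount, and with 0.1 it was 1.54. On the scale of CPM per kilobase of exon, the *Csf1* level was 54.2, 60.3, 63.6 and 73.3 times that of *Il34* in the IL-1β-treated samples. In the vehicle-treated samples it was 211, 311, 119 and 174 times that of *Il34*. *Il34* thus made up 1.59% ± 0.194 of the summed level of both genes with IL-1β and 0.550% ± 0.217 with vehicle. In absolute terms the difference in mean level per kilobase was larger for *Csf1* (8.28) than for *Il34* (1.56), since the 6.13% difference of *Csf1* started from a level of 135 ± 3.51.

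**Figure D2:**
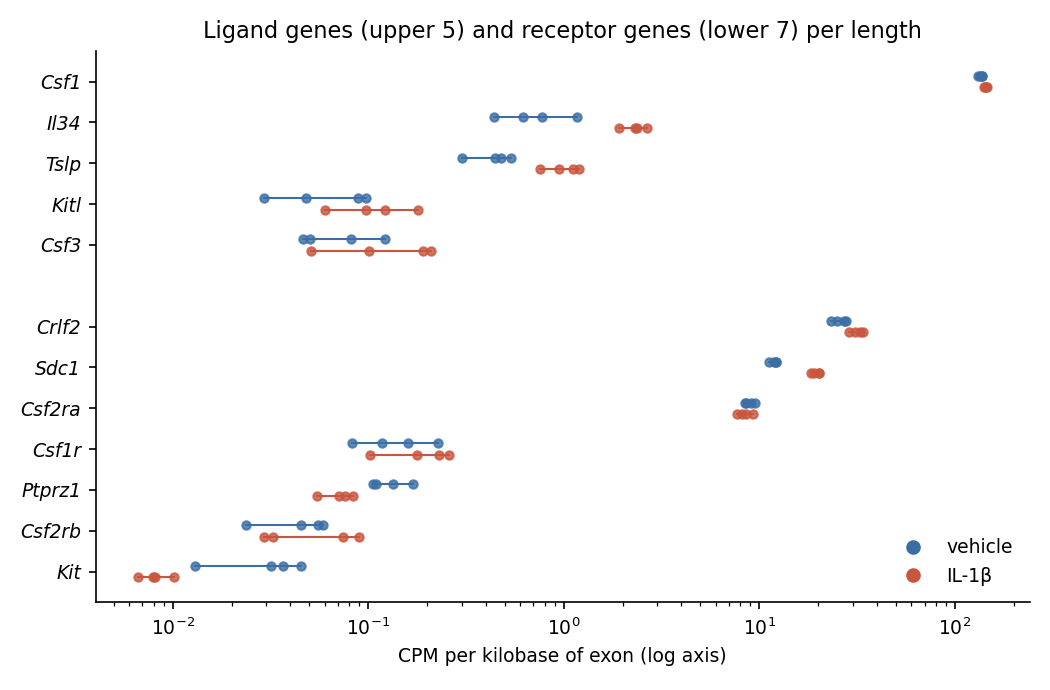
Level of 5 ligand genes and 7 receptor genes in CPM per kilobase of exon on a log axis, 1 point per sample and a line over the range of each group (blue, vehicle; red, IL-1β). *Csf1*, at 143 ± 2.59 with IL-1β, lies far to the right of *Il34* (2.31 ± 0.307) and of the gene of its receptor, *Csf1r* (0.192 ± 0.0690).

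*Csf2* and *Csf3* are classic targets of IL-1 in fibroblasts and endothelial cells and encode factors that expand and activate granulocytes and macrophages. *Csf2* (ENSMUSG00000018916.5, chr11:54247271-54249667, minus strand) had 0 reads in all 8 samples, which allows up to 3 counts per sample, or 0.173 to 0.270 CPM. This is an upper bound for 1 sample taken alone and not a limit of detection. *Csf3* was seen below it, at 0.0657 CPM in vehicle replicate 4. Of the exon bases of *Csf2*, 12.0% lie under the opposite-strand gene *Gm12223*, which also had 0 reads. *Csf3* (ENSMUSG00000038067.2, chr11:98701263-98703629, plus strand) had 3, 1, 5 and 2 reads with IL-1β and 3, 2, 1 and 1 with vehicle. The groups overlapped, and only IL-1β replicate 3 was above 3 reads. Its mean was 0.195 ± 0.107 against 0.106 ± 0.0497 CPM (SD, n = 4 each). In the fit without the filter, over the 32379 genes with at least 1 read, the log2 fold change of *Csf3* was 0.79 (SE 0.778, adjusted p = 0.568). The ratio of its summed counts, scaled by library size, was 1.80, with a 95% interval from 0.636 to 5.46 that covers counting error only, so neither a rise of several fold nor a fall could be told from no change.

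*Kitl* (ENSMUSG00000019966.18, chr10:100015630-100100416, plus strand), whose product is made by stromal cells, had 8, 8, 6 and 15 reads with IL-1β and 3, 10, 4 and 8 reads with vehicle. The groups overlapped, with IL-1β replicate 4 the highest sample. The means were 0.680 ± 0.297 and 0.391 ± 0.193 CPM (SD, n = 4 each), with a log2 fold change of 0.75 in the fit without the filter (SE 0.420, adjusted p = 0.263). The ratio of summed counts was 1.69, with a counting interval of 0.991 to 2.93. Left-out samples moved the log2 fold change between 0.43 and 1.03 without making a call.

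*Tslp* (ENSMUSG00000024379.4, chr18:32815383-32819797, plus strand) encodes an epithelial and stromal cytokine that primes dendritic cells. It had 14, 22, 17 and 21 reads in the IL-1β-treated samples and 7, 11, 10 and 9 reads in the vehicle-treated ones. The groups did not overlap, the lowest IL-1β-treated sample having 1.01 CPM and the highest vehicle-treated one 0.713 CPM. The means were 1.34 ± 0.257 and 0.586 ± 0.131 CPM (SD, n = 4 each). *Tslp* missed the filter, a CPM above 1 in at least 4 samples, through IL-1β replicate 3, which was just under 1 CPM before TMM scaling and at 1.01 CPM after it.

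In the fit without the filter, *Tslp* rose with a log2 fold change of 1.18 (SE 0.319, adjusted p = 0.00182), and it was then a DEG, as were 1.96% of the 32379 genes of that fit in the same direction. The ratio of summed counts was 2.29, with a counting interval of 1.52 to 3.49. DESeq2 without the filter gave 1.20 (adjusted p = 0.0236), and leaving out single samples gave 1.03 to 1.31.

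Per kilobase of exon, the order of the mean levels was *Csf1*, *Il34*, *Tslp*, *Csf3*, *Kitl* and *Csf2* in both groups. The ranges of *Csf3* and *Kitl* overlapped in both groups, so their order is not defined. *Il34* and *Tslp* overlapped with vehicle (0.442 to 1.17 against 0.303 to 0.536 CPM per kilobase) but not with IL-1β (1.92 to 2.67 against 0.759 to 1.19). *Csf1* made up 97.6% ± 0.201 of the summed level of the 6 genes with IL-1β and 99.0% ± 0.232 with vehicle (SD, n = 4 each).

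**Figure D3:**
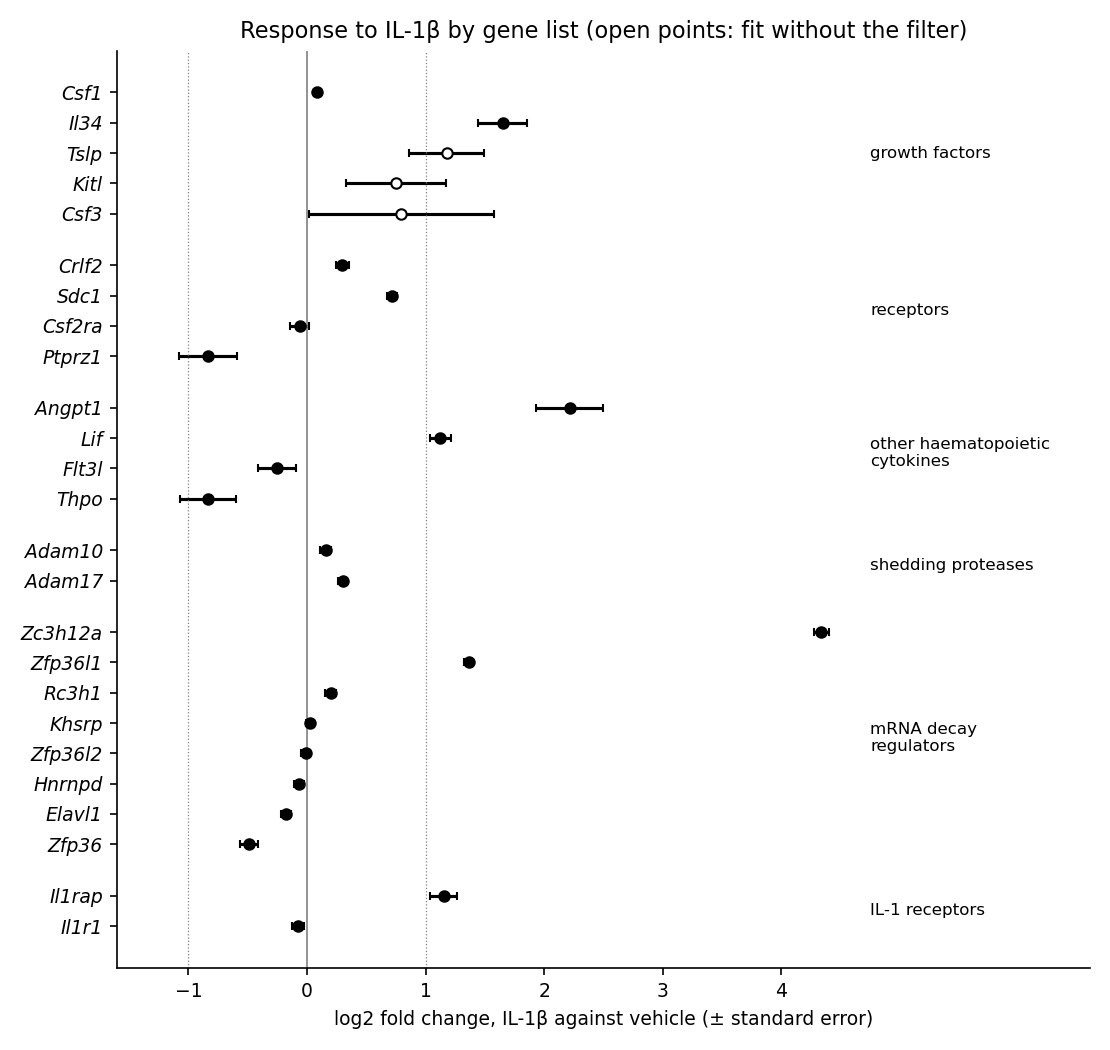
Log2 fold change of IL-1β- against vehicle-treated samples with its standard error for the growth factors and the related gene lists, where open points come from the fit without the filter and dotted lines mark the thresholds of 1 and -1. *Il34* at 1.65, *Tslp* at 1.18 (open point), *Angpt1* at 2.21 and *Lif* at 1.12 lie beyond the right threshold. So do *Zfp36l1* at 1.36, *Zc3h12a* at 4.34 and *Il1rap* at 1.15. None of the 4 tested genes in the list of growth factor receptors lies beyond it.

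Of 10 listed receptor genes, 4 passed the filter and 0 were DEGs by edgeR's quasi-likelihood test. Over all tested genes, 2.86% were DEGs with higher and 2.35% with lower expression. Without the fold threshold, 2 were higher and 1 was lower, against 20.4% and 19.8% of all tested genes. *Sdc1*, a heparan sulfate proteoglycan that binds the IL-34 protein, rose from 45.2 ± 1.63 to 74.3 ± 3.49 CPM (log2 fold change 0.72, SE 0.0434, adjusted p = 4.12e-14). *Crlf2*, the specific chain of the TSLP receptor, rose from 38.5 ± 3.03 to 47.2 ± 3.32 CPM (0.30, SE 0.0547, adjusted p = 5.58e-05). *Ptprz1*, a receptor phosphatase that also binds IL-34, fell from 1.85 ± 0.424 to 1.02 ± 0.173 CPM (-0.83, SE 0.243, adjusted p = 0.00666), and its groups did not overlap, as for 18.2% of tested genes in this direction. *Csf2ra*, the α chain of the GM-CSF receptor, was at 15.6 ± 1.28 and 16.4 ± 0.874 CPM, with a ratio of summed counts of 0.961 and a counting interval of 0.878 to 1.05.

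Apart from *Crlf2* and *Csf2ra*, the signalling chains that these ligands need were scarce. *Csf1r* had 14, 12, 19 and 7 reads with IL-1β and 7, 10, 11 and 17 with vehicle, or 0.938 ± 0.337 and 0.721 ± 0.307 CPM (SD, n = 4 each). The groups overlapped, and the fit without the filter gave a log2 fold change of 0.39 (adjusted p = 0.554). *Csf2rb*, the shared β chain that pairs with *Csf2ra*, had 3 to 9 reads in a sample. *Il7r*, the partner of *Crlf2* in the TSLP receptor, had 1 read in 2 of the IL-1β-treated samples and 0 in the others. *Kit* had 1 read in each IL-1β-treated sample and 7, 2, 4 and 5 reads in the vehicle-treated ones, and was not called in the fit without the filter (adjusted p = 0.0860). *Csf3r* had at most 2 reads in a sample. *Csf2rb2*, which was on the list but is not counted here as a chain that these ligands need, had at most 3.

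Among 10 other haematopoietic cytokines, 4 passed the filter and 2 were DEGs, both higher under IL-1β, where 2.86% of all tested genes were. *Lif*, an IL-6 family cytokine that supports stem and progenitor cells, rose from 8.33 ± 0.476 to 18.2 ± 1.66 CPM (log2 fold change 1.12, SE 0.0885, adjusted p = 1.46e-11). *Angpt1*, the ligand of TIE2 that stabilises vessels and supports haematopoietic stem cells, had 40, 35, 39 and 25 reads with IL-1β and 9, 7, 12 and 6 with vehicle. Its groups did not overlap, and its log2 fold change was 2.21 (SE 0.284, adjusted p = 2.19e-07), but it passed the filter only through the IL-1β-treated samples. *Thpo*, which drives platelet formation, fell from 2.08 ± 0.396 to 1.19 ± 0.325 CPM (-0.83, SE 0.235, adjusted p = 0.00526), and *Flt3l*, a dendritic cell growth factor, was not called (-0.25, adjusted p = 0.228). *Il11*, *Il7* and *Cxcl12* were below the filter with 0.994, 0.798 and 0.578 CPM under IL-1β, *Il3* and *Il5* had 2 reads each over all samples, and *Epo* had 0.

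The products of *Csf1* and *Kitl* are made as membrane proteins that are cut from the cell surface, and *Adam17* and *Adam10* encode sheddases. *Adam17* rose from 69.5 ± 2.93 to 85.5 ± 1.17 CPM (log2 fold change 0.30, SE 0.0386, adjusted p = 2.28e-07). *Adam10* rose from 45.5 ± 2.92 to 50.6 ± 0.551 CPM (0.16, adjusted p = 0.00673), a call that was lost without vehicle replicate 1 (adjusted p = 0.0539). *Mmp9*, which releases KIT ligand in bone marrow, was below the filter with 0.711 and 0.546 CPM.

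All 8 regulators of cytokine mRNA decay were tested, and 2 were DEGs, 3 were higher and 2 lower at an adjusted p under 0.05, and 3 were not called. Over all tested genes, 2.86% were DEGs with higher expression, and 20.4% were higher and 19.8% lower at an adjusted p under 0.05. *Zc3h12a*, which encodes the ribonuclease regnase-1 that cuts cytokine mRNAs, rose from 5.03 ± 0.715 to 103 ± 2.81 CPM, or 20.2-fold (adjusted p = 5.04e-29). *Zfp36l1*, which encodes a protein known to bind AU-rich elements, rose from 81.8 ± 4.84 to 209.7 ± 9.96 CPM (log2 fold change 1.36, SE 0.0388, adjusted p = 7.41e-22). Its relative *Zfp36*, which encodes tristetraprolin, fell from 22.1 ± 1.09 to 15.6 ± 1.90 CPM (-0.49, SE 0.0761, adjusted p = 5.7e-06). *Rc3h1*, which encodes roquin-1, rose by a smaller amount (0.20, adjusted p = 7.38e-04), and *Elavl1*, whose product HuR stabilises AU-rich mRNAs, fell (-0.18, adjusted p = 5.91e-04). *Zfp36l2*, *Khsrp* and *Hnrnpd* were not called, with log2 fold changes of -0.01, 0.02 and -0.07. Whether these regulators act on the growth factor mRNAs in these cells was not tested.

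Of the receptor for the treatment itself, *Il1r1* was at 33.95 ± 2.28 CPM with IL-1β and 35.8 ± 0.961 with vehicle and was not called (adjusted p = 0.263). *Il1rap*, its coreceptor, rose from 5.18 ± 0.777 to 11.6 ± 0.672 CPM (log2 fold change 1.15, SE 0.111, adjusted p = 9.76e-10). The decoy receptor *Il1r2* and the antagonist *Il1rn* had at most 4 reads in a sample.

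The nearest tested genes on each side of the 6 growth factors were taken to see what their surroundings did. Of these 12 neighbours, 5 rose, 3 fell and 4 were not called, where 20.4% of all tested genes were higher and 19.8% lower at an adjusted p under 0.05. Among those that rose was *Gm36211*, 59752 bases from *Csf1*, with 1.30 ± 0.276 CPM under IL-1β and 0.624 ± 0.251 CPM with vehicle. It reached the filter mainly through the group in which it was higher. *Mtss1l* lies 429 bases from *Il34* and fell from 129 ± 3.42 to 94.3 ± 8.08 CPM (log2 fold change -0.45, adjusted p = 7.43e-10), opposite to *Il34*. *Sf3b3*, 4315 bases away on its other side, rose from 287 ± 6.69 to 312 ± 1.78 CPM (0.12, adjusted p = 0.00242). *Psmd3* and *Med24*, 5284 and 962 bases from *Csf3*, were at 186 and 53.2 CPM under IL-1β although *Csf3* itself was near 0. *P4ha2*, 115606 bases from *Csf2*, rose with a log2 fold change of 0.27 (adjusted p = 3.77e-08) while *Csf2* had no reads.

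The profiles most like that of *Csf1* over the 8 samples, by Pearson's r of log2 CPM, were those of *Mast3* (r = 0.992, log2 fold change 0.28) and *Ccdc92* (r = 0.985, 0.38), and 140 tested genes (0.972%) had an r above 0.9. For *Il34* they were *Snx30* (r = 0.988, 0.32) and *Impa2* (r = 0.988, 0.81), and 922 tested genes (6.40%) had an r above 0.9. All points share the same 8 libraries and the split into treatments, so these values describe likeness only.

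**Figure D4:**
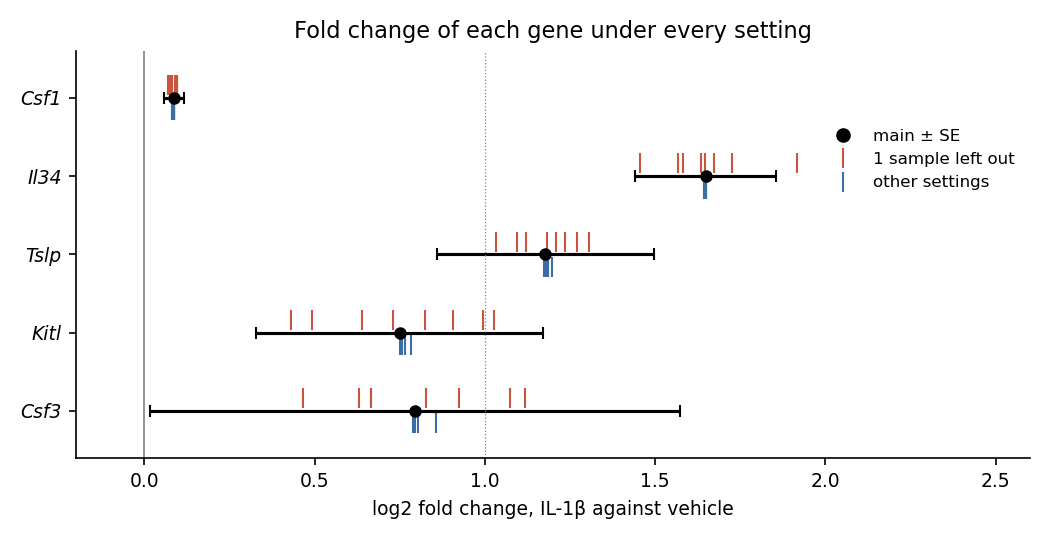
Log2 fold change of the 5 growth factors with reads, with black points and bars for the value and standard error given in the text, red ticks for fits with 1 sample left out and blue ticks for the other settings. *Il34* (1.45 to 1.92 with a sample left out) and *Tslp* (1.03 to 1.31) stay above the threshold of 1, *Csf1* stays close to 0, and *Kitl* and *Csf3* cross the threshold.

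Across the settings, the direction of all 5 growth factors with reads was higher under IL-1β in every fit. When samples were scaled by their total counts instead of TMM, the log2 fold change was 0.08 for *Csf1* and 1.64 for *Il34*.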

How the data were processed

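RNA-Seq of 8 samples was analysed. Per the labels and methods, reads were trimmed with cutadapt, mapped to mm10 by STAR and assigned to genes by featureCounts. The authors deposited the resulting counts per gene symbol as whole numbers, unscaled, beside the length of each gene in bases (unit: other), which served here for levels per kilobase. Whether they were taken before or after the RUVseq correction that the methods name is not given in the sources used here.

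TMM factors and edgeR's quasi-likelihood test (two-sided, treatment alone in the model, versions edgeR 4.0.16 and limma 3.58.1 under R 4.3.3) were applied to 14404 genes, those whose CPM exceeded 1 in 4 or more samples, with Benjamini-Hochberg adjustment over all of them. Genes below this filter were read from the fit over all 32379 genes with at least 1 read. SE is the standard error of a log2 fold change. The *Il34* to *Csf1* log2 ratio used CPM with a pseudocount of 0.5 and an exact permutation test. DESeq2 1.42.0, other scalings and filters, the replicate block and leaving out each sample were alternatives. In simulated data for this comparison, 200 of 200 changed genes among 14404 were recovered, with 1 false call. All changes put into the simulated data lay well beyond the fold threshold, in genes that passed the filter. Recovery near the threshold, of a difference as small as that of *Csf1*, or in genes below the filter was not tested. Intervals are 95% exact intervals of counts and, like the limit of 3 counts, cover counting error only. Positions and 3′ UTRs came from GENCODE vM21, with lengths equal to those in the table for all 6 genes. Python 3.11.15 with numpy 2.4.6, scipy 1.17.1, pandas 2.3.3 and matplotlib 3.10.9 gave the remaining values and the figures.

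The 6 genes and the lists of receptors, other haematopoietic cytokines, sheddases, mRNA decay regulators, IL-1 receptors, treatment genes and cell type markers were chosen with earlier results of these data known. The named genes are these lists, the nearest tested neighbour on each side of each growth factor and the 2 genes with the highest Pearson's r to each tested growth factor. The paper's miRNA-Seq, qPCR, in vivo and human data were not analysed here.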

Additional observations from a re-analysis of the deposited data

Results flagged for a closer look

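Dixon's ratio was computed for the highest and the lowest sample in each of 78 groups of 4 samples, where chance alone gives about 3.9 flags. There were 2 flags, both in chondrocyte markers and none in a growth factor. *Comp* was at 549.3 CPM in vehicle replicate 4, while the other vehicle-treated samples lay between 523.2 and 527.1 CPM. *Hapln1* was at 252.6 CPM in IL-1β replicate 1, while the other IL-1β-treated samples lay between 266.1 and 267.0 CPM.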

How the results depend on the processing

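The replicate numbers of the groups did not pair the samples: the correlation of deviations from the group means was -0.0689 to 0.0353 for samples with the same number and -0.0787 to 0.0846 for the others. With the replicate block, 751 genes were DEGs, as without it, and the log2 fold changes were 0.09 for *Csf1* (adjusted p = 0.0232) and 1.64 for *Il34*. The number of DEGs was 511 under a stricter filter, with all 8 samples over 1 CPM, and 1206 without a filter. *Csf1* had a log2 fold change of 0.0803 without the filter (adjusted p = 0.0792), and of 0.0687 to 0.0950 with a sample left out, where its call was lost in 2 of 8 fits. The count of growth factors that were DEGs was 2 without the filter and 2 with edgeR's filterByExpr, a filter chosen after seeing the data (*Il34* and *Tslp*). It was 0 under the stricter filter, where *Il34* was not tested. The count with an adjusted p under 0.05 was then 1, and 1 to 2 with a sample left out. The count of other haematopoietic cytokines that were DEGs was 1 under the stricter filter and 2 to 3 with a sample left out. With a sample left out, *Zfp36l2* changed sign (-0.0410 to 0.0163), as did *Khsrp* (-0.000386 to 0.0489), neither being called. The difference in log2 ratio between *Il34* and *Csf1* was 1.54 with a pseudocount of 0.1. It was 1.14 to 1.48 with a sample left out, where 3 against 4 samples allow no p below 0.0571. The cause of these changes was not tested, other than the fewer genes or samples that each setting leaves. Of the other values, *Lyz2* lost its call in 7 settings and *Adam10* in 1. In DESeq2 without the filter, a fit outside these settings, *Thpo* (adjusted p = 0.0570) and *Ptprz1* (0.0689) were not called. The same held there for *Adam10* (0.0650) and *Lyz2* (0.273). At this depth, the counts of *Csf3* and *Kitl* leave wide intervals, and the 0 reads of *Csf2* allow up to 3 counts per sample.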
